A study of Mus musculus with 14 samples.

Results

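Histone genes were followed in mouse embryo fibroblasts, primary connective-tissue cells grown from embryos, before and after DNA damage. The members were all rows of the deposited RNA tables whose symbol begins with Hist1h, Hist2h, Hist3h, Hist4h, H2af or H3f3, or equals H1f0 or H1fx. This rule took 74 of 20207 genes. Symbols beginning with Hist were called clustered, which gave 64 genes, and the other 10 were called variant. The cells were of strain 129/Sv and either wild type (wt) or p53-null (p53-/-), that is, without the tumour suppressor p53. They were left untreated (ut) or given doxorubicin (dox), a drug that causes DNA breaks, at 0.2 ug/ml for 6 h. There were 3 untreated and 3 treated wild-type libraries, and 2 untreated and 2 treated p53-null libraries. The labels do not say whether libraries of a group came from separate embryos or cultures, so p-values measure only the spread between these libraries, which may be technical.

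The clustered genes were named by symbol and are mostly replication-type genes. Most such genes lie in arrays and are transcribed while DNA is being copied. The class as built also takes in a testis-type gene, Hist1h2aa, and Hist4h4, the only clustered member on chromosome 6. They make the core histones H2A, H2B, H3 and H4 and the linker histone H1. Their mRNAs usually end in a stem-loop in place of a poly(A) tail. The variant genes are mostly transcribed through the cell cycle and mostly give polyadenylated mRNAs. Their proteins replace the replication-type histones at particular sites or times. Whether each variant gene, H2afx among them, follows this description was not tested. The RNA was purified with an mRNA kit and sequenced near 3′ ends (3-seq), so reads of clustered genes count mainly those transcripts that such a preparation retained.

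The wild-type libraries held 9768161 to 11770448 reads and the p53-null libraries 18099506 to 25970157, so depth and genotype cannot be told apart. As a check of the labels, Cdkn1a, the p53 target that encodes the cell cycle inhibitor p21, averaged 684 CPM (reads of a gene per 1000000 reads of the library, after scaling) in untreated and 4492 in treated wild type, and 30.3 and 50.3 in p53-null cells. Trp53 itself averaged 23.1 CPM in untreated wild type and 71.7 in untreated p53-null libraries. Reads at a 3′ end do not check a deletion elsewhere in the gene. Of 14 fibroblast markers, 13 or 14 reached a mean of 1 CPM in each group. The summed level of 12 macrophage and blood markers was 95.6 to 510 CPM in untreated and 44.5 to 236 in treated wild type. That of 5 epithelial markers was 55.8 to 174 CPM in untreated and 115 to 218 in treated wild type. The sum of 5 endothelial markers was at most 4.46 CPM in any library. The part of these markers in the results was not tested. In such bulk libraries, fewer cells of a type and less RNA per cell cannot be told apart.

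Reads of histone genes came mostly from the variants. Over all libraries the 10 variant genes gave 197939 reads and the 64 clustered genes 4488. Within a library the variant reads were 27.2 to 64.2 times the clustered reads. How far the mRNA purification sets that ratio was not tested. CPM here is per read and not divided by length, because 3-seq takes reads from the end of a transcript. The summed clustered level was 44.0, 30.5 and 30.5 CPM in untreated wild type and 28.2, 32.9 and 33.0 in treated wild type, so the groups overlapped. It was 36.5 and 26.2 CPM in untreated and 23.9 and 17.2 in treated p53-null cells, with both treated libraries lower. The summed variant level was 1198, 1034 and 861 CPM in untreated wild type and 1457, 1390 and 1041 in treated wild type. The groups overlapped, while within each replicate number the treated library was higher. For the clustered sum the treated library was lower for number 1 and higher for numbers 2 and 3. In p53-null cells it was 1512 and 1278 CPM untreated and 1254 and 1106 treated.

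**Figure D1:**
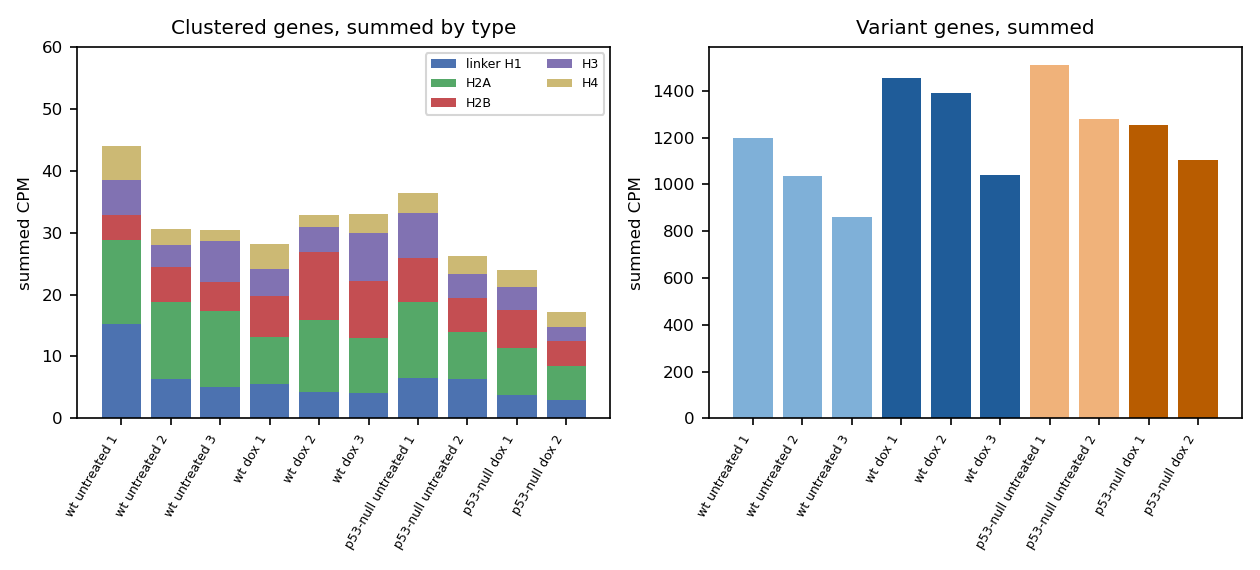
Summed level (CPM, from 0) of the clustered genes, stacked by histone type, and of the variant genes, 1 bar per library. The clustered sums lie between 17.2 and 44.0 CPM and the variant sums between 861 and 1512 CPM.

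Within the clustered genes, reads were unevenly spread. Hist1h2aa, which encodes a testis-type H2A, gave 703 reads, followed by Hist1h2bc (an H2B gene) with 493, Hist1h1c (a linker H1 gene) with 351, Hist3h2a with 309 and Hist3h2ba with 227. These 5 genes held 46.4% of the clustered reads. Pooled reads weight the deeper p53-null libraries: Hist3h2ba had 12 of its 227 reads in untreated wild type, and its mean over the libraries, 1.21 CPM, was below those of Hist1h3a, Hist2h3c2 and Hist4h4 (1.29, 1.29 and 1.22 CPM). A further 8 clustered genes (Hist1h2ad, Hist1h2ao, Hist1h4m, Hist2h2aa1, Hist2h2aa2, Hist2h3b, Hist2h3c1 and Hist3h2bb) had no read in any library. Over all libraries together, a count of 0 allows a level of up to 0.0195 CPM, for counting error only. Among the variants, 3 genes held 77.7% of the reads: H2afy (macroH2A1), H3f3b (histone H3.3) and H2afj (H2A.J). H3f3b also gave 93.9% to 97.0% of the H3.3 reads in each library, against its partner H3f3a. Copies of near-identical sequence are common among clustered genes, and how the authors assigned reads shared between copies is not given in the sources used here. RefSeq places 8 members over another gene, among them Hist1h2aa, Hist3h2ba, Hist3h2a and H2afy. Whether strand was used in counting is likewise not given, so reads at these 8 are uncertain.

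All 74 members matched RefSeq (GRCm38.p6), and 50 of the clustered genes lie on chromosome 13. Promoters were taken as the 250 bases before the annotated start and searched on both strands for 4 motifs. The first was the CCAAT box, spelled by its name. The second was a TATA box, spelled TATAAA. Next came the H1 box of linker histone genes, spelled AAACACA. The last was a cell cycle homology region, spelled TTTGAA. The CCAAT box was found in 83.1% of 59 clustered promoters, 50.0% of 8 variant promoters and 33.8% of all 32851 promoters. The TATA box was found in 47.5% of the clustered, 12.5% of the variant and 12.4% of all promoters. The shares for AAACACA were 15.3%, 12.5% and 6.25%, and those for TTTGAA were 40.7%, 0.0% and 16.0%. A match is a description of letters and not a measured site. For the linker genes, the window of Hist1h1c is chr13:23738557-23738806 on the plus strand, that of Hist1h1e chr13:23622559-23622808 on the minus strand and that of the variant linker gene H1f0 chr15:79027962-79028211 on the plus strand. The H3f3b window is chr11:116024505-116024754 on the minus strand, that of Hist3h2ba chr11:58948661-58948910 on the plus strand and that of Hist1h3c chr13:23745522-23745771 on the minus strand. These 6 are shown because their response values are described next, and capitals mark the searched motifs or their reverse complements.
Hist1h1c: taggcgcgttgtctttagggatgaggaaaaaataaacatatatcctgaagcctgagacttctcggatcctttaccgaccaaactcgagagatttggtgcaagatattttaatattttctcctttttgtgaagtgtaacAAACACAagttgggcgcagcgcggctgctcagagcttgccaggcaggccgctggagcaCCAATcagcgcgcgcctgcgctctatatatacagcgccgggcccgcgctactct
Hist1h1e: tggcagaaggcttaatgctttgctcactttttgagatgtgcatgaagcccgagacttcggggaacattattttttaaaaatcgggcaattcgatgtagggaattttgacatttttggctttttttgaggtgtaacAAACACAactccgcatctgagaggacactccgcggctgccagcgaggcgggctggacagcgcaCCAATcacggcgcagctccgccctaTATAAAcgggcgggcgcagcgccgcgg
H1f0: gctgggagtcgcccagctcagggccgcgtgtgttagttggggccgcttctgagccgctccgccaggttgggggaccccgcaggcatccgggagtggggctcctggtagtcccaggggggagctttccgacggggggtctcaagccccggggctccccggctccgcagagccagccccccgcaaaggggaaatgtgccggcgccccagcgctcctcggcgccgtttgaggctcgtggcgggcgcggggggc
H3f3b: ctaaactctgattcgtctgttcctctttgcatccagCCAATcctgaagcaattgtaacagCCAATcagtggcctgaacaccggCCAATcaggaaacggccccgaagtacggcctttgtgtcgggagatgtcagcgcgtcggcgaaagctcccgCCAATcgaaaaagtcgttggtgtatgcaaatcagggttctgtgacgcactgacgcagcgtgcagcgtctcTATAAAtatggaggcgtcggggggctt
Hist3h2ba: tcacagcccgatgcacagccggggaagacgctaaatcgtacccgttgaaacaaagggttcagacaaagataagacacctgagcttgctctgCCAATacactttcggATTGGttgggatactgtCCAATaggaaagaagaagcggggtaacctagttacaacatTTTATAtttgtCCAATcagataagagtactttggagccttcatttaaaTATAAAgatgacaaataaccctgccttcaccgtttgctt
Hist1h3c: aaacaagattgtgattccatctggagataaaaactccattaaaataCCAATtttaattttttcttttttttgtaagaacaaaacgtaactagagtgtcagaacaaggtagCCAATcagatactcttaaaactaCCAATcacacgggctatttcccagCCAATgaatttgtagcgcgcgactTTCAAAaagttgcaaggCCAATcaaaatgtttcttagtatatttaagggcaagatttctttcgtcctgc
Both clustered linker promoters shown hold AAACACA and CCAAT. Of all 6 clustered linker genes, each has a CCAAT box and 5 have the H1 box, which is missing from the Hist1h1a window. The H1f0 window holds none of the 4 motifs. H3f3b and Hist3h2ba hold CCAAT and TATAAA, and Hist1h3c holds CCAAT and TTTGAA. No match says only that these letters are not in this window.

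Genes entered the test where at least 2 libraries reached 1 CPM, which left 11177 genes. Of the members, 22 passed: 9 of 10 variants (all but H2afy3) and 13 of 64 clustered genes, of which 4 were H1, 3 H2A, 2 H2B, 3 H3 and 1 H4. Differences are on the log2(CPM + 0.5) scale, which understates the change of low genes, and a gene was called at an adjusted p under 0.05 over all 11177 genes.

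The first comparison asked how wild-type cells responded to doxorubicin. It called 3 variant genes, with H1f0 and H2afx lower and H3f3b higher after treatment, and 0 clustered genes, while 12.5% of all tested genes were called (7.86% higher and 4.61% lower). H1f0, the linker histone that accumulates in cells that stop dividing, was at 52.0, 66.8 and 57.3 CPM untreated and at 13.6, 14.6 and 11.3 CPM treated. Each treated library was below each untreated one. The log2 fold was -2.12 (SE 0.20, adjusted p = 0.000154). H2afx encodes the H2A variant that is phosphorylated beside DNA breaks. Its level was 76.0, 120 and 82.4 CPM untreated and 39.7, 49.7 and 45.5 CPM treated, with no overlap. It fell by 1.02 on the log2 scale (SE 0.25, adjusted p = 0.0240). H3f3b was at 254, 201 and 206 CPM untreated and at 499, 321 and 356 CPM treated, and every treated library was higher. Its log2 fold was 0.81 (SE 0.20, adjusted p = 0.0250). The H1f0 call was kept under all 21 alternatives, with folds from -2.52 to -2.02. Without treated library 1, or untreated library 2 or 3, neither H2afx nor H3f3b passed (adjusted p from 0.0594 to 0.100). H3f3b also missed the threshold in the fit of the wild-type libraries alone (adjusted p = 0.108), without untreated p53-null library 2 (0.0556) and without both p53-null libraries numbered 2 (0.0892).

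The replicate number paired the wild-type libraries, since same-numbered ones deviated together. With the number as a block, 9 histone genes were called, 5 variant and 4 clustered, against 23.0% of all genes. H3f3a, the second H3.3 gene, was at 10.1, 6.97 and 6.78 CPM untreated and at 15.8, 14.5 and 11.4 CPM treated. Every treated library was above every untreated one, with a log2 fold of 0.78 (adjusted p = 0.0937 without and 0.0257 with the block). H2afj was at 360, 259 and 296 CPM untreated and at 510, 613 and 419 CPM treated, also without overlap. Its log2 fold was 0.75 (adjusted p = 0.115 without and 0.0258 with the block).

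Counting groups that did not overlap, the treated wild-type libraries were higher for 1 clustered and 3 variant genes (16.8% of all genes) and lower for 4 clustered and 2 variant genes (12.2%). The other 4 variants did not pass in either fit. H2afy, the macroH2A1 gene whose product carries a large extra domain, was at 214, 262 and 176 CPM untreated and 219, 253 and 131 CPM treated. H2afy2 (macroH2A2) was at 4.84, 2.35 and 2.34 CPM untreated and 3.02, 2.86 and 1.23 CPM treated. H2afz (H2A.Z) was at 14.9, 14.1 and 17.3 CPM untreated and 16.1, 23.3 and 13.3 CPM treated. The ranges overlapped in each case, with log2 folds of -0.14 (SE 0.26), -0.36 (SE 0.40) and 0.15 (SE 0.26). H1fx, a linker variant, was at 212, 101 and 17.1 CPM untreated and 140, 98.4 and 51.7 CPM treated. It was high in both libraries numbered 1 and low in both numbered 3, and its log2 fold of 0.31 had an SE of 0.83. H2afy3 stayed below the filter, with 10 reads over all libraries.

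**Figure D2:**
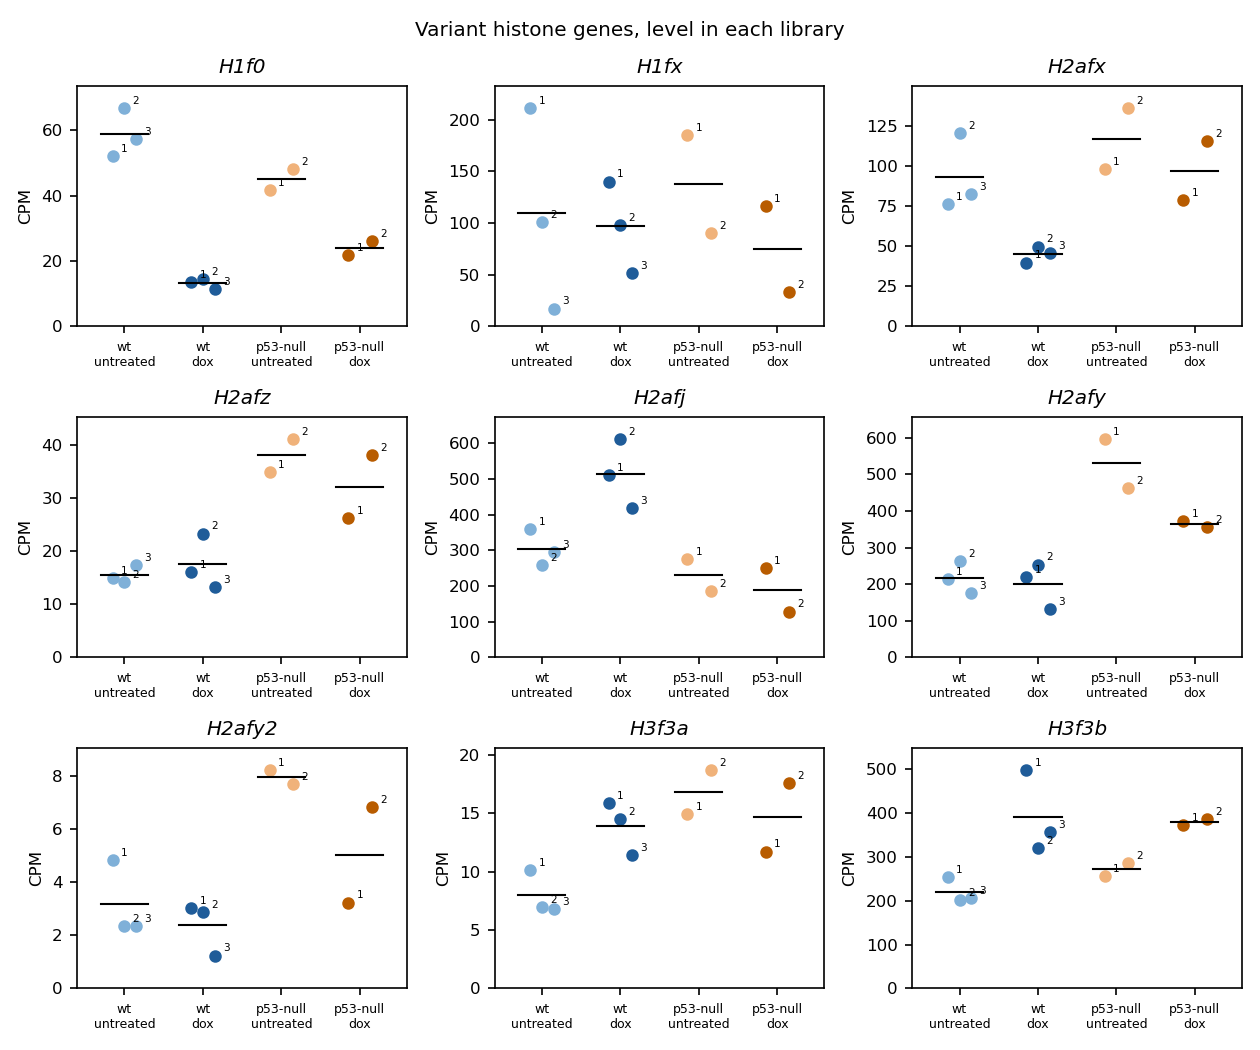
Level (CPM, linear axis from 0) of the 9 tested variant genes in each library, with 1 point per library, its replicate number beside it, and a line at the group mean. H1f0 lies at 52.0 to 66.8 CPM in untreated and 11.3 to 14.6 CPM in treated wild type.

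Among the 13 tested clustered genes, 5 had a log2 fold above 0 and 8 below 0 in wild type, with a median of -0.40, beside 0.04 over all tested genes. Of these 13, Hist1h1d, Hist1h1e and Hist1h2af reached 1 CPM in untreated libraries alone, so their direction is partly fixed by the filter. Over the other 10 the split was 5 and 5. Among those 10, Hist1h3c (1 CPM in 4 untreated and 1 treated library) and Hist2h3c2 (2 and 1) also needed untreated libraries to pass. Hist1h1a (1 and 2) needed treated ones, so this split is not free of the filter either. Without the block none of the 13 was called by limma-trend as reported or by limma-voom. In the limma-trend fit 6 of the 13 had an unadjusted p under 0.05, beside 2991 of all 11177 tested genes. With median-of-ratios scaling 1 of the 13 was called, Hist1h3c (log2 fold -0.99, adjusted p = 0.0498). The 2 tested H2B genes were higher after treatment in the blocked fit. Hist1h2bc was at 1.06, 3.44 and 3.78 CPM untreated and 3.39, 8.30 and 7.82 CPM treated. The ranges overlapped, but each treated library exceeded the untreated one of its number. Its log2 fold was 1.14 (adjusted p = 0.128 without and 0.00957 with the block). Hist3h2ba was at 0.354, 0.453 and 0.445 CPM untreated and 1.56, 1.38 and 0.926 CPM treated, without overlap. Its log2 fold was 0.95 (adjusted p = 0.0985 without and 0.0243 with the block). Summed over all 17 H2B genes, the level was 4.01 to 5.70 CPM untreated and 6.68 to 11.1 CPM treated. The 15 H2B genes below the filter gave 22, 20 and 4 of these reads untreated and 19, 15 and 4 treated, so the gap lay in Hist1h2bc and Hist3h2ba. The summed H2A level was 12.8 ± 0.691 CPM (SD, n = 3) untreated and 9.36 ± 2.08 CPM (SD, n = 3) treated.

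An H3 gene and an H2A gene were lower in the blocked fit. Hist1h3c was at 2.24, 1.54 and 1.11 CPM untreated and 0.549, 0.645 and 0.514 CPM treated. All treated libraries were lower, with a log2 fold of -0.96 (adjusted p = 0.0528 without and 0.0389 with the block). Over both genotypes Hist1h3c reached 1 CPM in 4 untreated libraries and 1 treated one, so it needed untreated libraries to pass the filter. Its direction is thus partly fixed by that choice. Hist1h2af had 10, 4 and 5 reads untreated and 3, 0 and 1 reads treated. Its log2 fold of -0.90 (adjusted p = 0.0822 without and 0.0196 with the block) therefore rests on few reads and on the pseudocount. It passed the filter through untreated libraries alone, so its place among the blocked calls and the lower genes without overlap is partly fixed by that choice.

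The leading clustered genes otherwise had smaller folds. Hist1h2aa was at 8.38, 6.88 and 8.01 CPM untreated and 3.57, 6.45 and 4.53 CPM treated, without overlap (log2 fold -0.66, SE 0.29, adjusted p = 0.182). Hist1h1c was at 4.01, 2.90 and 2.11 CPM untreated and 1.56, 1.75 and 1.75 CPM treated, also without overlap (log2 fold -0.65, SE 0.27, adjusted p = 0.150). Both missed the threshold with the block as well, at adjusted p of 0.106 and 0.101. Hist3h2a, an H2A gene beside Hist3h2ba, was at 1.42, 3.35 and 3.00 CPM untreated and 2.47, 2.86 and 2.26 CPM treated. Hist4h4, the tested H4 gene, was at 2.71, 1.18 and 1.33 CPM untreated and 1.56, 0.830 and 0.514 CPM treated. In both, the groups overlapped. Hist1h3a was at 2.12, 0.362 and 1.00 CPM untreated and 1.56, 1.57 and 0.823 CPM treated. Hist2h3c2 was at 0.590, 1.18 and 3.45 CPM untreated and 0.824, 0.645 and 5.45 CPM treated, with its highest values in both libraries numbered 3. Hist1h1b, a linker gene below the filter, was at 3.89, 0.724 and 0.890 CPM untreated and 1.01, 0.369 and 0.823 CPM treated. The other tested linker genes, Hist1h1a, Hist1h1d and Hist1h1e, had log2 folds of -0.40, -0.40 and -0.61 and did not pass. Untreated library 1 stood apart in the linker class: the summed H1 level was 15.2 CPM there, 6.34 and 5.00 CPM in the other untreated wild-type libraries, and 4.01 to 5.58 CPM after treatment.

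**Figure D3:**
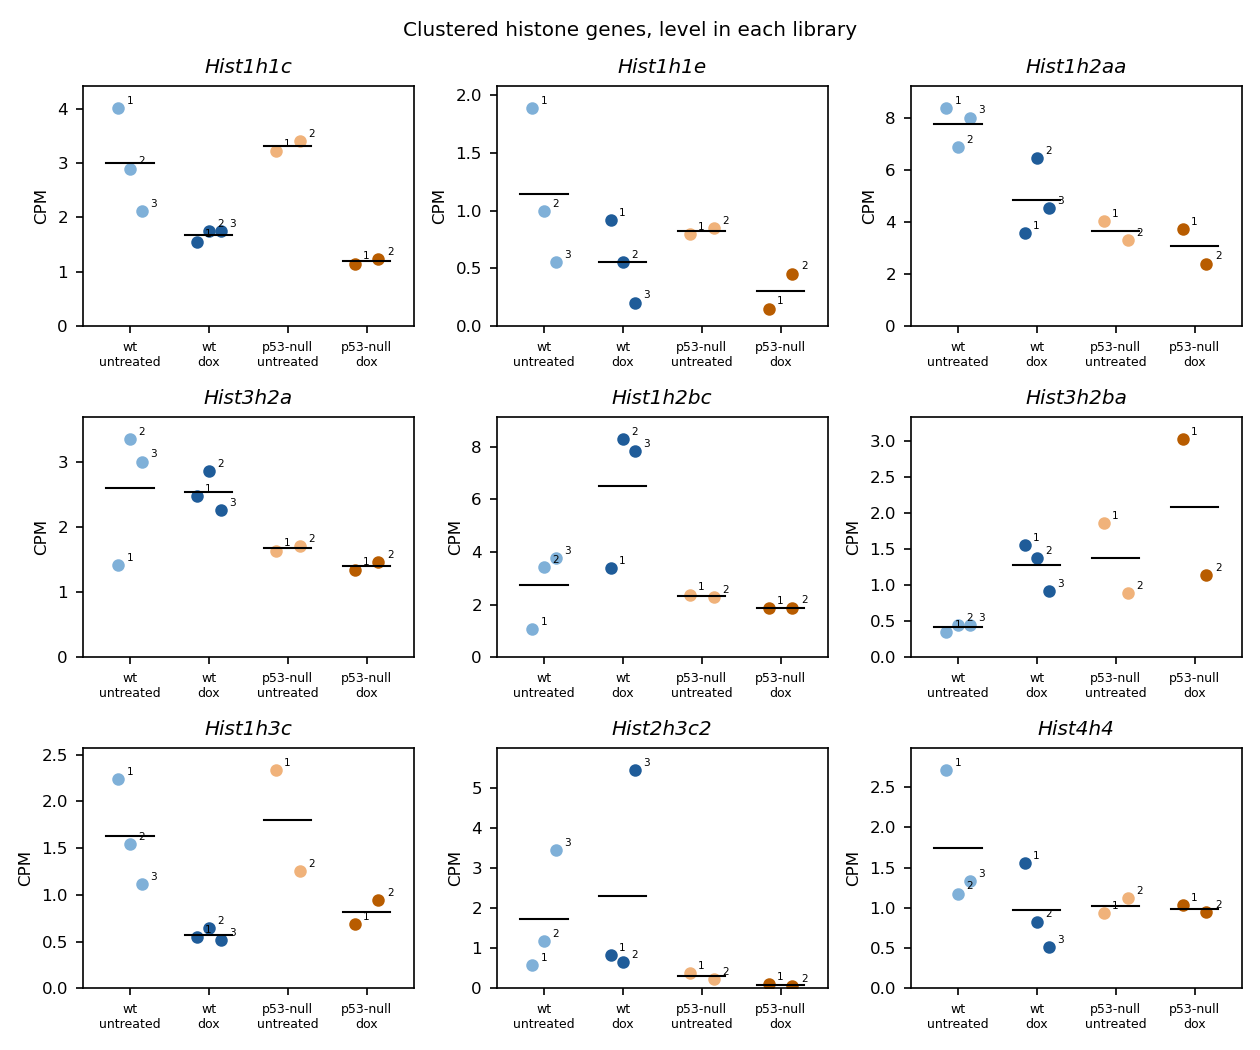
Level (CPM, linear axis from 0) of 9 clustered genes in each library, with 1 point per library, its replicate number beside it, and a line at the group mean. Hist3h2ba lies at 0.354 to 0.453 CPM in untreated and 0.926 to 1.56 CPM in treated wild type, and Hist1h3c at 1.11 to 2.24 and 0.514 to 0.645 CPM.

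The second comparison asked the same of p53-null cells. It called 0 of the 22 histone genes, and 0.0% of all genes, by limma-trend, by limma-voom and with the replicate block. An unadjusted p under 0.05 was reached by 1262 genes, of which 2 were histone genes, H1f0 and Hist1h1c. Between groups that did not overlap, treated p53-null libraries were lower for 7 clustered and 3 variant genes (25.8% of all genes) and higher for 0 clustered and 1 variant gene (26.9%). Of the lower clustered genes, Hist1h1d and Hist1h1e passed the filter through untreated libraries alone. Hist1h3c and Hist2h3c2 reached 1 CPM in only 1 treated library of either genotype, so they too needed untreated ones to pass. The count of lower clustered genes is thus partly fixed by the filter. H1f0 was at 41.8 and 48.1 CPM untreated and 21.7 and 26.0 CPM treated, with both treated libraries lower. The log2 fold was -0.90 (SE 0.25, adjusted p = 0.352). Hist1h1c was at 3.23 and 3.40 CPM untreated and 1.15 and 1.24 CPM treated, again without overlap. The log2 fold was -1.17 (SE 0.33, adjusted p = 0.352). H3f3b was at 257 and 287 CPM untreated and 373 and 386 CPM treated, with a log2 fold of 0.48 (SE 0.24, adjusted p = 0.477). Its groups did not overlap. H2afx was at 97.8 and 136 CPM untreated and 78.6 and 115 CPM treated, with overlap and a log2 fold of -0.28 (SE 0.30).

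Of the 9 tested variants in p53-null cells, 8 had a log2 fold below 0 (median -0.34). The exception was H3f3b. Of the 13 clustered genes, 11 were below 0 (median -0.25), with Hist3h2ba at 0.40 and Hist1h1a at 0.32 as the exceptions. Without the 3 that passed the filter through untreated libraries alone, 8 of 10 were below 0. Those 10 still include Hist1h3c, Hist2h3c2 and Hist1h1a, which needed libraries of 1 treatment to pass. The median over all tested genes was -0.04. H2afj was at 275 and 186 CPM untreated and 250 and 128 CPM treated, and H3f3a at 14.9 and 18.7 CPM untreated and 11.7 and 17.6 CPM treated. Both had overlapping groups. Hist1h2bc was at 2.38 and 2.28 CPM untreated and 1.88 and 1.89 CPM treated. Hist1h3c was at 2.34 and 1.25 CPM untreated and 0.692 and 0.943 CPM treated, with a log2 fold of -0.77 (SE 0.35, adjusted p = 0.447). Treated p53-null levels were 373 and 356 CPM for H2afy, 26.3 and 38.1 CPM for H2afz, 3.23 and 6.83 CPM for H2afy2, and 3.73 and 2.41 CPM for Hist1h2aa. Their untreated values stand with the comparison of genotypes. Hist3h2a was at 1.64 and 1.70 CPM untreated and 1.34 and 1.46 CPM treated. Hist2h3c2 was low in all p53-null libraries, at 0.374 and 0.224 CPM untreated and 0.115 and 0.0651 CPM treated. Hist1h3a was at 2.10 and 1.21 CPM untreated and 1.50 and 0.683 CPM treated, and Hist4h4 at 0.935 and 1.12 CPM, then 1.04 and 0.943 CPM. H1fx again followed the number, at 185 and 90.0 CPM untreated and 117 and 33.2 CPM treated.

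**Figure D4:**
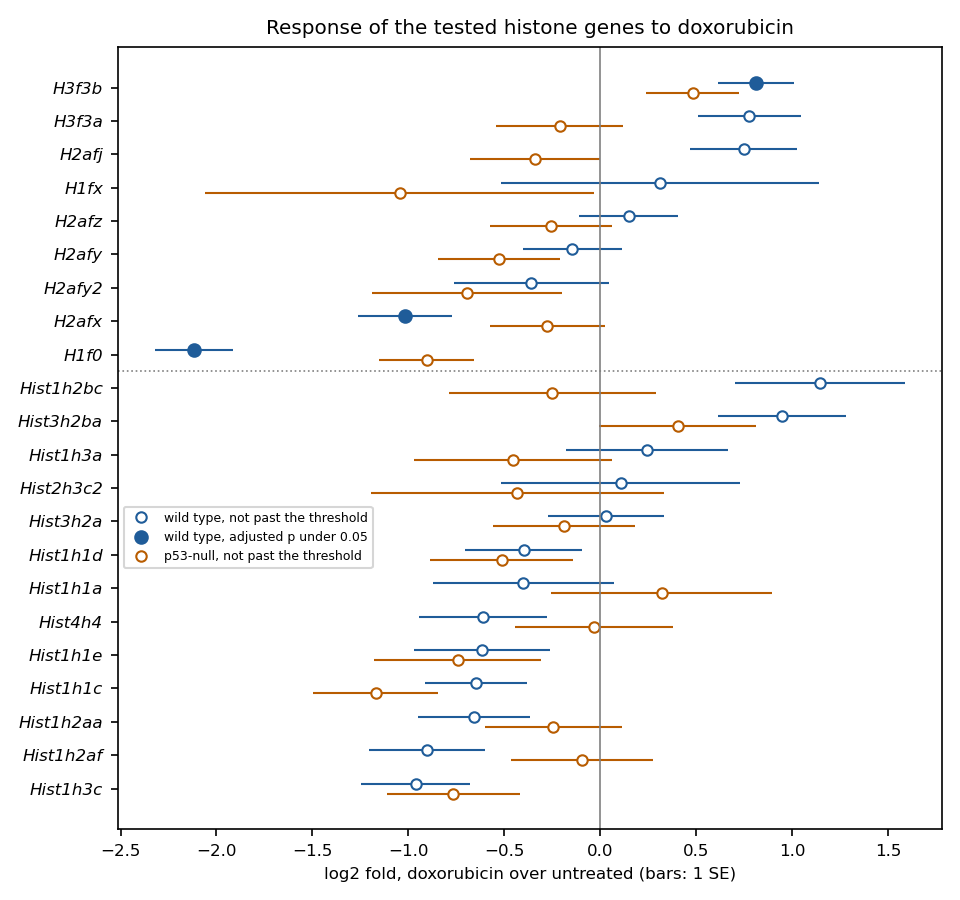
Log2 fold (treated over untreated, bars of 1 SE) of the 22 tested histone genes in wild-type and p53-null cells, with the variants above the dotted line. Filled points passed an adjusted p under 0.05 and are H1f0, H2afx and H3f3b in wild type.

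Whether the response itself differed between genotypes was tested as the difference of the log2 folds, wild type minus p53-null. It called 0 of the 22 histone genes, by limma-trend and by limma-voom, while 2.19% of all genes were called. An unadjusted p under 0.05 was reached by 3 histone genes (H1f0, H2afj and H3f3a), beside 2337 of all 11177 tested genes. For H1f0 the difference was -1.21 (SE 0.32, adjusted p = 0.0775), and with the replicate block its adjusted p was 0.0342. For Hist1h2bc the difference was 1.39 (SE 0.70, adjusted p = 0.281), and with the block its adjusted p was 0.0475. With the block 9.33% of all genes were called, and these were the 2 histone genes among them. The block here also pairs the p53-null libraries by number, and their 2 pairs are too few to show such a pairing. H2afj and H3f3a differed by 1.09 (SE 0.44, adjusted p = 0.201) and 0.99 (SE 0.43, adjusted p = 0.224), and neither passed with the block. For H2afx the difference was -0.74 (SE 0.39, adjusted p = 0.301), and for H3f3b it was 0.33 (SE 0.31, adjusted p = 0.563). Neither gene was shown to respond differently in the 2 genotypes, or alike.

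The last comparison set untreated wild-type against untreated p53-null cells, and it shares the untreated libraries with the response tests. It called 4 histone genes, while 32.9% of all genes were called (12.7% higher in wild type and 20.2% lower). H2afy was at 214, 262 and 176 CPM in the wild-type libraries and at 597 and 463 CPM in the p53-null ones. The groups did not overlap, and the log2 fold of wild type over p53-null was -1.29 (SE 0.29, adjusted p = 0.0110). H2afz was at 14.9, 14.1 and 17.3 CPM in wild type, against 34.9 and 41.2 CPM without p53, with a log2 fold of -1.27 (SE 0.29, adjusted p = 0.0114). H3f3a was at 10.1, 6.97 and 6.78 CPM in wild type, against 14.9 and 18.7 CPM without p53, with a log2 fold of -1.05 (SE 0.30, adjusted p = 0.0270). All 3 were thus lower in wild type, without overlap. Hist1h2aa went the other way, at 8.38, 6.88 and 8.01 CPM in wild type, against 4.02 and 3.31 CPM without p53, with a log2 fold of 0.99 (SE 0.33, adjusted p = 0.0420).

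Scaling by library size alone moved the median of all genes by -0.35 and the share of calls that were higher in wild type from 38.6% to 13.4%. Median-of-ratios scaling moved that median by 0.10, with 46.8% of calls higher. Relative to that shift the 3 variants kept their direction. Hist1h2aa was not called by library size alone (log2 fold 0.63, adjusted p = 0.145) or without a filter (0.0528). Nor was it called with the replicate number as a term shared by both genotypes (0.0575). Leaving out untreated p53-null library 1 or 2 left 0 histone genes called, while the calls over all genes fell from 3674 to 436 and 479. Leaving out untreated wild-type library 2 or 3 left 2, H2afy and H2afz, with 2204 and 1714 calls over all genes. Without untreated wild-type library 1, Hist1h2aa was again not called (adjusted p = 0.0725). H2afy2 was at 4.84, 2.35 and 2.34 CPM in wild type, against 8.23 and 7.70 CPM without p53 (log2 fold -1.27, SE 0.45, adjusted p = 0.0535). It passed under 6 of 21 alternatives, among them limma-voom (adjusted p = 0.0435), the fit of the untreated libraries alone (0.0315) and a pseudocount of 1 CPM (0.0474). H1f0, H2afx, H2afj and H3f3b had log2 folds of 0.38, -0.34, 0.42 and -0.31 and did not pass. By library size alone, H3f3b did pass (log2 fold -0.70, adjusted p = 0.0329). The genotypes did not overlap for 4 members higher in wild type, 3 clustered and 1 variant (28.5% of all genes), and for 1 clustered and 5 variant genes lower in wild type (35.9%). With the replicate number as a term, the 3 variants were called and Hist1h2aa was not, against 32.7% of all genes. Here the term joins wild-type and p53-null libraries that share only a number, and the labels give no other link between them. This fit therefore does not decide the Hist1h2aa call. Of the 13 clustered genes, 9 had a log2 fold above 0 (median 0.24, beside -0.09 over all genes). Hist2h3c2, with the largest clustered fold (1.28), reached 1 CPM in wild-type libraries alone. Hist1h1a and Hist1h1d also needed wild-type libraries to pass the filter. The direction of these genes is thus partly fixed by the filter, as is the place of Hist2h3c2 among the clustered genes higher without overlap. Hist3h2ba was at 0.354 to 0.453 CPM in wild type and at 1.87 and 0.896 CPM in p53-null cells (log2 fold -0.99, SE 0.37, adjusted p = 0.0658). It passed under 4 of 20 alternatives, among them library size alone (adjusted p = 0.0254) and the fit of the untreated libraries alone (0.0342).

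Genes that serve the histones were read from 3 lists. For histone transcription and mRNA 3′ end processing, 18 of 22 listed genes were tested. In wild type 1 was higher and 3 were lower after doxorubicin, beside 7.86% and 4.61% of all tested genes. Lsm11, part of the U7 particle that cuts histone pre-mRNA, fell from a mean of 75.2 to 36.2 CPM (log2 fold -1.05, adjusted p = 0.00430). Coil, the Cajal body protein coilin, fell from 9.11 to 2.09 CPM (-1.95, adjusted p = 0.00822). Nfyb, a subunit of the factor that binds CCAAT, rose from 9.81 to 30.3 CPM (1.56, adjusted p = 0.0259). Of 28 tested chaperone and deposition genes (31 listed), 0 were higher and 2 lower. Nasp, a chaperone of H3 and linker histones, fell from 214 to 119 CPM (-0.84, adjusted p = 0.0257). Vps72, a subunit of H2A.Z-exchange complexes, fell from 55.5 to 25.6 CPM (-1.18, adjusted p = 0.0468). Of 28 S-phase genes, all tested, 1 was higher and 1 lower: Rrm2, a ribonucleotide reductase subunit, rose from 5.20 to 13.4 CPM (1.35, adjusted p = 0.0457), and Tk1, thymidine kinase, fell from 267 to 146 CPM (-0.90, adjusted p = 0.0281). The medians of the 3 lists were -0.07, -0.17 and -0.05, beside 0.04 over all genes. The calls of Lsm11 and Coil held with each library left out. Those of Nfyb, Nasp and Tk1 were lost without treated wild-type library 1 (adjusted p = 0.0860, 0.0845 and 0.0803) and without untreated wild-type library 2 or 3, and those of Nfyb and Tk1 also without treated library 2. Without a filter, the calls of Nfyb, Vps72 and Rrm2 were lost (adjusted p = 0.0522, 0.0855 and 0.0808), and those of Vps72 and Rrm2 also with limma-voom (0.0519 and 0.0557). In the fit of the wild-type libraries alone, Vps72, Rrm2 and Tk1 did not pass (0.0999, 0.119 and 0.0591), and by library size alone Vps72 did not (0.0573). Vps72 was lost without any 1 library but treated wild-type library 3, and Rrm2 without any but untreated library 1 or treated library 3 of wild type.

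In p53-null cells none of the 3 lists held a called gene, as with all genes, and their medians were -0.01, 0.04 and 0.33. The difference of responses was called for Nasp and Tk1 and no other listed gene. Nasp was at 96.8 and 112 CPM in untreated and 186 and 190 CPM in treated p53-null cells, which gave a difference of -1.69 (SE 0.32, adjusted p = 0.0306). For Tk1 these values were 131 and 170 CPM, then 266 and 278 CPM, and the difference was -1.76 (SE 0.36, adjusted p = 0.0359). Between untreated genotypes, the processing list held 0 genes higher and 5 lower in wild type, the chaperones 3 and 10, and the S-phase list 1 and 8, beside 12.7% and 20.2% of all tested genes. The list medians were -0.16, -0.12 and -0.62, beside -0.09 over all genes. Those with the smallest p were Cstf2t, Npat and Sympk, then Supt16h, Ino80 and Anp32e, then Pola1, Rrm1 and Rrm2, all lower in wild type. Npat, the coactivator of clustered histone genes, averaged 0.642 CPM in wild type and 4.22 CPM in p53-null cells (log2 fold -2.09, adjusted p = 0.00756). Without untreated p53-null library 1 the calls of Cstf2t, Npat, Sympk and Rrm2 were lost (Npat at 0.0507), and without library 2 those of Npat, Ino80, Anp32e, Rrm1 and Rrm2 (Npat at 0.0693).

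Over the 10 libraries, the genes whose log2 level followed the summed clustered level most closely were Rnft2 (Pearson r = 0.89), St3gal3 (0.87), Plec1 (0.85), Npepl1 (0.82) and Hist1h1d (0.82), the last of which is part of the sum. These are descriptions over libraries that differ in genotype, treatment and depth, with no test.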

How the data were processed

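RNA from 10 libraries was analysed. The authors deposited 1 value per gene and library on a variance-stabilised scale close to log2, made with DESeq on build mm9 per the submitters' processing notes. For the aligner, annotation, strand and counting, the sources used here give nothing. Reads were recovered from the steps between deposited values, since each whole read number has 1 place on a curve shared by all genes: 99.9% of 22112 distinct values above the first 250 reads lay within 0.01 of a whole read, and the 22 others were at 143049 reads or more. No histone gene exceeded 12767 reads. Libraries were scaled by a trimmed mean of M values (30% and 5% trims). Genes with at least 1 CPM by library size in at least 2 libraries were tested with limma-trend (limma 3.58.1, R 4.3.3) on log2(CPM + 0.5), with 1 mean per group over all 10 libraries, two-sided, with Benjamini-Hochberg adjustment over 11177 genes. The scripts were tested on simulated data.

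Wild-type libraries of the same replicate number deviated together (correlations 0.58, 0.34 and 0.61), and so the number pairs them, as a pattern of the data. The p53-null libraries have 2 pairs, too few for that reading.

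All tested variants, and clustered genes called or among the 10 highest, are given in values, with up to 3 called genes per pathway list and comparison. The members and lists were chosen with earlier results of these data known. Alternatives covered scaling, the deposited values, pseudocount, filter, limma-voom, fewer groups, the replicate block and each library left out, plus one chosen after seeing the data, without both p53-null libraries numbered 2. The ChIP-seq libraries were not used here.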

Additional observations from a re-analysis of the deposited data

Results flagged for a closer look

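The response to doxorubicin differed between genotypes, by the test of the difference itself, for 245 genes and no histone gene. The 3 named here are those among the label check and the pathway lists. For Cdkn1a the difference of log2 folds, wild type minus p53-null, was 2.01 (SE 0.28, adjusted p = 0.00795 by limma-trend). For Nasp, the histone chaperone, it was -1.69 (SE 0.32, adjusted p = 0.0306). For Tk1 it was -1.76 (SE 0.36, adjusted p = 0.0359). The calls of Nasp and Tk1 were lost without wild-type treated library 1, wild-type untreated library 2 or 3, or any 1 of the 4 p53-null libraries. Both were also lost by library size alone (adjusted p = 0.0524 for each), and Tk1 without a filter (0.0615). The call of Cdkn1a was lost without untreated p53-null library 1 (adjusted p = 0.0634) or 2 (0.0591), or without treated p53-null library 2 (0.0511).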

How the results depend on the processing

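The count of histone genes called in the wild-type response was 3. It was 4 with median-of-ratios scaling, 9 with the replicate block (2567 calls over all genes, against 1394), and 1 to 3 with a library left out (707 to 1433). In the difference of responses it was 0, or 2 with the block (1043 over all genes, against 245). Between untreated genotypes it was 4. There it was 7 without a filter (H2afy, H2afz and H3f3a, then Hist1h2ah, Hist1h2bb, Hist1h3h and Hist1h4b, all lower in wild type), 0 without both p53-null libraries numbered 2 (210 over all genes, against 3674), and 0 to 6 with a library left out (436 to 4218). In p53-null cells it was 0 under every alternative run. Few reads lay behind the 4 clustered genes called between untreated genotypes without a filter. Hist1h2ah had 0, 0 and 0 reads in untreated wild type and 4 and 1 in untreated p53-null cells. These counts were 0, 1 and 0, then 5 and 5 for Hist1h4b, and 1, 0 and 0, then 27 and 7 for Hist1h3h. For Hist1h2bb they were 2, 0 and 2, then 18 and 14. The p53-null libraries were also deeper. Of 1599 values of named genes under alternatives, 1438 kept direction and side of the threshold, 114 lost the call, 20 gained it and 27 changed sign. The cause was not tested.

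The values that changed sign were small or belonged to genes that did not pass. In the wild-type response, H1fx ranged from -0.71 to 1.09 with a library left out, H2afy from -0.34 to 0.14 and H2afz from -0.0712 to 0.32. In the p53-null response, the ranges were -0.81 to 0.14 for H2afj, -0.55 to 0.00237 for H2afx, -0.52 to 0.00932 for H2afz, -0.49 to 0.0745 for H3f3a, -0.51 to 0.0293 for Hist1h2aa and -0.15 to 0.96 for Hist3h2ba. In the difference of responses, they were -0.19 to 0.79 for H2afy2, -0.54 to 0.14 for Hist1h3c and -0.0432 to 1.07 for Hist3h2ba, and Hist1h3c was at 0.28 without both p53-null libraries numbered 2. Between untreated genotypes, they were -1.62 to 0.18 for H1fx, -0.28 to 0.25 for Hist1h2af, -0.19 to 0.54 for Hist1h2bc and -0.46 to 0.25 for Hist1h3c. By library size alone, where the median of all genes moved by -0.35, that comparison gave -0.0164 for H1f0, -0.18 for Hist1h2af and -0.25 for Hist1h2bc. With the replicate number as a term shared by both genotypes it gave -0.15 for Hist1h2bc and 0.0107 for Hist1h3c. Without both p53-null libraries numbered 2 it gave -0.27 for Hist1h2af.

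Of the 64 clustered genes, 51 did not reach the filter and were not tested in the fits as reported. With 2 p53-null libraries per group, leaving 1 out assumes that the lone library varies like the other groups.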
